A study of Mus musculus with 20 samples.

Results

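Interferon-stimulated genes were followed in the livers of 20 male mice as a fixed list of 37 member genes, each matched by its gene name to 1 of the 38924 rows of the deposited expression table. Wild type (WT) C57/BL6 mice and mice labelled TSP-1 knockout, a deletion of Thbs1, were fed a control diet or CDAHFD for 12 weeks. CDAHFD is rich in fat, free of choline, limited in methionine and based on amino acids, and is used to model non-alcoholic steatohepatitis. The 4 groups of 5 mice were NDWT and NDKO on the control diet, WT and TSP-1 null respectively, and HFWT and HFKO on CDAHFD, and each mouse gave 1 library of poly(A) RNA from a piece of whole liver. The knockout is a germline loss in all cells, not limited to a cell type, and the labels give no litter, so breeding history cannot be told apart from genotype. Levels are FPKM, fragments scaled by gene length and by the fragments assigned to genes in the library, and can be compared between genes because length is divided out.

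Interferons are secreted proteins that bind receptors on the cell surface, activate the kinases JAK1, JAK2 and TYK2 and, through them, STAT transcription factors. Type I interferons (interferon alpha and beta) act mainly through a complex that holds STAT2 and IRF9 and binds the interferon-stimulated response element (ISRE), whereas type II interferon (interferon gamma) acts mainly through the gamma-activated site (GAS). The induced genes include sensors of viral RNA, transcription factors that widen the response, and effectors: the OAS enzymes that switch on RNase L, the IFIT proteins that bind viral RNA, the ubiquitin-like ISG15, and the GBP and IRG families, GTPases that attack the vacuoles of intracellular microbes and respond strongly to interferon gamma. In the liver both hepatocytes and immune cells respond to interferons.

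The targeted gene was examined before the members. Thbs1 (ENSMUSG00000040152.8, GRCm38 chr2:118111876-118127133, plus strand) measured 0.058 to 0.326 FPKM in NDWT, 0.986 to 1.895 in NDKO, 3.46 to 6.10 in HFWT and 3.05 to 4.40 in HFKO. The level in NDKO was thus above that in NDWT in every library (log2FC 2.28, FDR 1.02e-05), against the label. An FPKM value sums a whole gene and cannot place fragments on single exons, so it is no check of the deletion. The mitochondrial transfer RNA genes mt-Tg and mt-Tr had 0 fragments in all 10 libraries labelled TSP-1 null and at least 1 fragment in all 10 WT libraries. Directions below are therefore those of the libraries labelled TSP-1 null. The single member on chromosome 2, which carries Thbs1, was Ifih1.

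Libraries held 15641545 to 23276322 fragments, and 3 fragments on a gene of 1 kb corresponded to 0.129 to 0.192 FPKM, a floor that covers counting error only. All 37 members passed the filter of FPKM above 0.5 in at least 5 libraries, which 14524 genes passed. HFWT5 had the lowest value of its group for 30 of the 37 members, and 1.08% of its fragments lay on the non-coding RNA gene Gm23935, against 0.0274% to 0.229% in the other libraries. Hepatocyte markers were present in every library (summed FPKM of 7 genes at least 35710). Whole liver was sampled, so fewer cells of a type and less RNA per cell cannot be told apart.

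The start sites of the members are shown because the members differ in which interferon motif lies there. Promoter entries of RefSeq on GRCm38.p6, from 250 bases before to 50 bases after the start, were found for 29 of the 37 members (all but Dhx58, Oas2, Mx1, Mx2, Rtp4, Usp18, Gbp6 and Iigp1). The letters GAAANNGAAA, used for the ISRE, were searched on both strands and occurred in 18 of the 29 members with an entry, and in 3.99% of all 27025 genes with one. The letters TTCNNNGAA, used for the GAS and identical on both strands, occurred in 10 of 29 members and in 9.55% of all genes. A match is a run of letters only, and matches of the 2 motifs can overlap. Since the list was made of interferon-stimulated genes, the high share of ISRE letters describes the list.

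Among the families, all 4 GBP genes with an entry (Gbp2, Gbp3, Gbp5 and Gbp7) and all 3 IRG genes with an entry (Igtp, Irgm1 and Irgm2) held ISRE letters, and Gbp5, Gbp7, Igtp and Irgm2 held GAS letters as well. These families made up 6 of the 8 members called between genotypes below. The stretches of Gbp5, Gbp7, Gbp3, Igtp and Irgm2 are printed 5′ to 3′ on the strand of the gene, with the matched letters in capitals. Those of Irgm1 and of Gbp2, which was among the called members, held ISRE letters without GAS letters and are not printed. The letters of Igtp and Irgm2, neighbours on chromosome 11, were the same at 68 of 70 bases.
Gbp5, chr3:142496684-142496915, plus strand: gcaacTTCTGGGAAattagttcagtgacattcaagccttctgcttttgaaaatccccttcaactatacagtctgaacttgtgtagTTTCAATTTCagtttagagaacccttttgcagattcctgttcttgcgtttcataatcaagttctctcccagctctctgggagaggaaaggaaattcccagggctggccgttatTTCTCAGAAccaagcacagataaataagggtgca
Gbp7, chr3:142530205-142530317, plus strand: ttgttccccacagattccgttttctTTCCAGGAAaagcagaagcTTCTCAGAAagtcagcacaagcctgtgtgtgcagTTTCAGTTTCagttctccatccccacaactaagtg
Gbp3, chr3:142559974-142560039, plus strand: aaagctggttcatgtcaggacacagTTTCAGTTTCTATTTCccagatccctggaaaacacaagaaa
Igtp, chr11:58199486-58199555, plus strand: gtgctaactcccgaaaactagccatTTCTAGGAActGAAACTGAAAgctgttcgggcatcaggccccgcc
Irgm2, chr11:58214877-58214947, plus strand: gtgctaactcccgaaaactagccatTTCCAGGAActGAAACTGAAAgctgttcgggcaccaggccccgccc

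Stretches of 5 other genes that rose with CDAHFD are printed to show the range of combinations. Isg15 and Oas3 held ISRE letters alone, which in Isg15 formed 3 overlapping matches, and Oas1a held both motifs. Irf1 and Irf8 held GAS letters without ISRE letters. The window of Ubd, the member with the largest diet difference, held neither, and those of Oasl1, Oasl2, Ifi44, Ifitm1, Xaf1, Irf7 and Irf9 held neither as well.
Isg15, chr4:156200850-156200921, minus strand: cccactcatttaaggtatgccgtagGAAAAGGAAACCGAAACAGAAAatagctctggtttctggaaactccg
Oas1a, chr5:120907526-120907648, minus strand: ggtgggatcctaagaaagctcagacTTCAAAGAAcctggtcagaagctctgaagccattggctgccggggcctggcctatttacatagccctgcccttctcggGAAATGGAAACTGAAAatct
Oas3, chr5:120777700-120777759, minus strand: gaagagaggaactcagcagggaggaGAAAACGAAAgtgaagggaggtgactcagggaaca
Irf1, chr11:53769899-53769957, plus strand: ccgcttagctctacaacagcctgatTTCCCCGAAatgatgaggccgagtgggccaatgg
Irf8, chr8:120736162-120736238, plus strand: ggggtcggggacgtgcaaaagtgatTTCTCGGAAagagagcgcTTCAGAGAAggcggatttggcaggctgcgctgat

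In NDWT the members spanned levels from 0.865 ± 0.159 FPKM (SD, n = 5) for Mx1, an antiviral GTPase disrupted in most laboratory strains, to 380.4 ± 66.0 FPKM for Ifitm3, a membrane protein that blocks viral entry. Bst2, the tethering protein of budding virus, followed with 154.6 ± 33.4 FPKM and Iigp1, an IRG protein, with 111.8 ± 21.2 FPKM. The 3 genes made up 65.8% to 76.5% of the summed FPKM of the 37 members in a library. Irgm2 (27.1 ± 2.78), Igtp (25.1 ± 5.59), Stat2 (20.9 ± 1.71) and Irf7 (20.2 ± 3.80) came next, and neighbours in that order differed by less than the larger of their SDs. Ubd ranked 34 of 37 in NDWT with 1.26 ± 0.670 FPKM.

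The question of the diet comparisons was how the feeding model changes the liver. In WT mice 21 of 37 members (56.8%) rose on CDAHFD and none fell (26 had an unadjusted p under 0.05, and limma with voom gave the same counts), where a change was called at an FDR under 0.05 with an absolute log2FC above 0.58 in limma. Of all tested genes 44.1% were called higher and 4.62% lower in the same comparison, and 75.0% had an unadjusted p under 0.05. The share of the members has to be read against that background. In the libraries labelled TSP-1 null 23 of 37 members (62.2%) rose and none fell (26 with an unadjusted p under 0.05, and the same counts with voom), against 41.9% higher and 4% lower of all genes. There 73.6% of all genes had an unadjusted p under 0.05. The median log2FC of the members was 0.63 in WT and 0.72 in TSP-1 null, and that of all genes 0.53 and 0.50. Values of the 5 mice did not overlap between diets, with CDAHFD higher, for 13 members in WT (50.5% of all genes) and for 20 in TSP-1 null (52.7%). CDAHFD was lower without overlap for Irgm2 alone in WT (5.7% of all genes) and for no member in TSP-1 null (5.03%).

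The shift of the whole transcriptome sets how these counts can be read. With median of ratios scaling, which brings the median log2FC of all genes close to 0 in both comparisons, 9 members were higher and 8 lower in WT and 8 higher and 6 lower in TSP-1 null, and all genes split into 3299 higher and 2242 lower genes in WT mice and 3225 higher and 1980 lower in TSP-1 null. With quantile normalization 7 members were higher and 8 lower in WT, while TSP-1 null gave 11 and 4, beside 2514 higher and 2562 lower of all 14524 genes in WT and 2421 higher and 2186 lower in the other genotype. Under all 3 scalings 6 members rose in both genotypes: Ubd, Irf8, Oas1a, Oas3, Oasl2 and Ifitm1. Gbp2 and Gbp6 also rose under all 3 in TSP-1 null. Both other scalings called Dhx58, Ifit1, Irf9 and Mx2 lower in both genotypes and Igtp, Irgm1 and Irgm2 lower in WT, whereas none of these was called as deposited. Each log2FC below is on the deposited scale, and 0.53 in WT or 0.50 in TSP-1 null of it is the shift of the median gene.

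**Figure D1:**
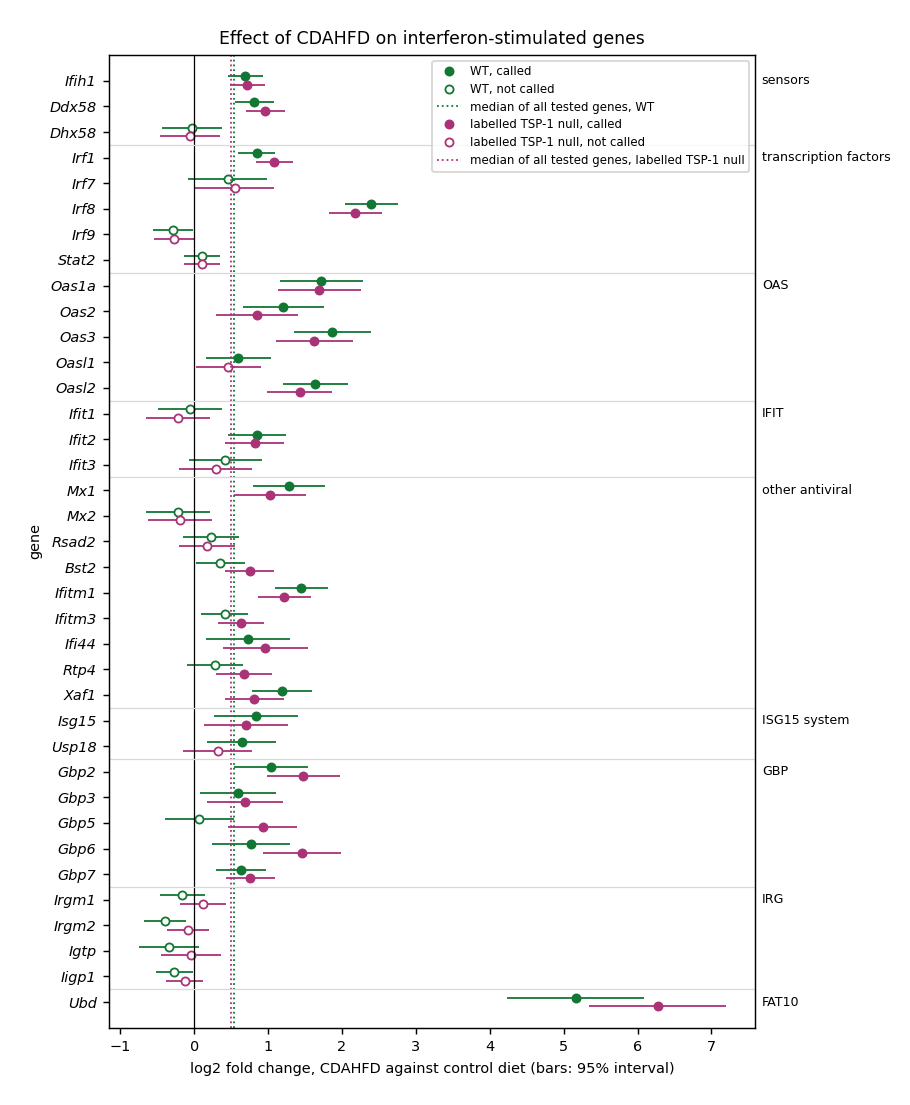
Log2FC of log2(FPKM + 0.1), CDAHFD against control diet (x axis), for the 37 members (y axis, by role) in WT and in libraries labelled TSP-1 null, with 95% intervals, filled points for called members, and dotted lines at the medians of all tested genes (0.53 and 0.50). Ubd lies far to the right at 5.17 and 6.27, the OAS genes and Irf8 lie right of the dotted lines apart from Oasl1 in TSP-1 null, and the 4 IRG genes lie left of them.

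Ubd showed the largest diet difference of the members in both genotypes. It encodes FAT10, a ubiquitin-like protein that marks proteins for the proteasome and is induced by interferon gamma and tumour necrosis factor. In NDWT it measured 1.06, 2.19, 1.57, 0.376 and 1.13 FPKM in mice 1 to 5, and in HFWT 34.4, 44.4, 62.7, 45.7 and 35 FPKM. NDKO mice had 0.729, 0, 0.402, 0.269 and 0.213 FPKM (0 to 14 fragments) and HFKO mice 22.1, 37.3, 21.1, 19.9 and 37.5 FPKM. Every CDAHFD library was thus far above every control diet library. The log2FC was 5.17 ± 0.44 (SE, FDR 4.28e-09) in WT and 6.27 ± 0.44 (FDR 3.65e-10) in TSP-1 null. With a pseudocount of 1 in place of 0.1 they were 4.35 and 4.40, so the size in TSP-1 null rests on how near to 0 its control diet values lie. NDKO2, at 0 fragments, allows up to 0.142 FPKM at 3 fragments.

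Transcription factors of the interferon response did not move as a group. Irf8, a factor of macrophages, dendritic cells and B cells, rose most: it measured 1.53, 2.36, 2.17, 1.28 and 1.57 FPKM in NDWT and 10.3, 9.37, 9.86, 10.7 and 8.02 FPKM in HFWT. In NDKO it measured 1.99, 1.55, 1.67, 1.56 and 1.39 FPKM and in HFKO 6.74, 7.18, 8.01, 5.84 and 11.9 FPKM. The diets did not overlap in either genotype, with a log2FC of 2.40 ± 0.17 (FDR 3.51e-10) and 2.18 ± 0.17 (FDR 1.61e-09). Irf8 overlaps Gm20388 on the same strand, which was listed at 0 FPKM. Irf1, a factor induced by interferon gamma through a GAS, measured 8.58, 9.77, 9.06, 6.74 and 8.75 FPKM in NDWT and 17, 13.3, 17.3, 17.1 and 12.8 FPKM in HFWT. Its NDKO values were 7.93, 5.39, 6.31, 5.1 and 6 FPKM and its HFKO values 12.4, 12.7, 12.3, 12.9 and 14.7 FPKM. Again the diets did not overlap, and the log2FC was 0.84 ± 0.12 (FDR 3.58e-06) in WT and 1.08 ± 0.12 (FDR 1.67e-07) in TSP-1 null. With median of ratios scaling it stood at 0.29 and 0.55 and was not called. Irf1 overlaps Gm17334 on the opposite strand.

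Irf7, the factor that amplifies type I interferon production, measured 20.4, 25.7, 21.6, 16.4 and 17 FPKM in NDWT and 41, 27.1, 25.8, 37.6 and 14.1 FPKM in HFWT. In NDKO it measured 17.1, 16.8, 21.3, 16 and 12.1 FPKM and in HFKO 17, 28.5, 26.9, 16.8 and 36.2 FPKM. The diets overlapped in both genotypes, since HFWT5, HFKO1 and HFKO4 lay among or below control values, and neither log2FC was called (0.45 ± 0.25, FDR 0.115, and 0.55 ± 0.25, FDR 0.0608). Without HFWT5 the difference in WT was 0.69 with an FDR of 0.00877. The components of the type I complex gave no call: Stat2 measured 19.6, 20.3, 23.6, 19.4 and 21.7 FPKM in NDWT and 27.1, 21.6, 21.3, 27.4 and 16.6 FPKM in HFWT. Its NDKO values were 20.0, 20.1, 17.4, 16 and 15 FPKM and its HFKO values 21.6, 17.7, 18, 18.5 and 18.8 FPKM, and all groups overlapped (log2FC 0.10 in both genotypes, FDR 0.445 and 0.443).

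Irf9, the DNA-binding part of that complex, had the lowest log2FC of the members in TSP-1 null. It measured 12.5, 10.8, 14.1, 12 and 13.6 FPKM in NDWT and 13.6, 9.82, 9.28, 11.9 and 7.69 FPKM in HFWT. NDKO mice had 11.9, 12.3, 11.7, 9.68 and 8.61 FPKM and HFKO mice 8.7, 9.47, 8.21, 9.26 and 8.75 FPKM. The diets overlapped, and the log2FC of -0.29 ± 0.13 (FDR 0.0513) and -0.27 ± 0.13 (FDR 0.063) were not called, while relative to the median gene they stood at -0.82 and -0.77. Irf9 shares 123 bases with Rnf31 on the same strand, so some of its fragments may belong to that gene.

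All 5 OAS family members rose in WT and 4 of 5 in TSP-1 null, with a median log2FC of 1.64 and 1.43. Of all genes 44.1% and 41.9% rose. With median of ratios scaling 4 OAS genes were higher in WT and 3 in TSP-1 null, and with quantile normalization 3 in each. Oas3 measured 0.756, 0.951, 1.02, 0.736 and 0.882 FPKM in NDWT and 5.02, 3.23, 3.34, 3.97 and 2.16 FPKM in HFWT. Its values were 0.862, 0.429, 1.04, 0.922 and 0.426 FPKM in NDKO and 1.7, 3.24, 2.22, 1.78 and 3.24 FPKM in HFKO, without overlap of the diets in either genotype (log2FC 1.87 ± 0.25, FDR 1.67e-06, and 1.63 ± 0.25, FDR 1e-05). Oas1a, another 2′-5′-oligoadenylate synthetase, measured 3.85, 3.31, 4.2, 3.03 and 2.29 FPKM in NDWT and 17.6, 9.91, 11.5, 16.2 and 4.88 FPKM in HFWT. In NDKO it measured 2.93, 2.57, 3.69, 3.02 and 1.99 FPKM and in HFKO 7.83, 9.7, 9.32, 7.25 and 13.1 FPKM. The diets did not overlap, with a log2FC of 1.72 ± 0.27 (FDR 1.13e-05) and 1.70 ± 0.27 (FDR 1.43e-05). Of the 31-base words of the Oas1a transcripts 68.7% occur in its paralog Oas1g, so its value may include fragments of that gene. Oasl2 rose by 1.64 ± 0.21 and 1.43 ± 0.21 and Oas2 by 1.21 ± 0.26 and 0.85 ± 0.26. Oasl1 rose in WT (0.60 ± 0.21, FDR 0.0158) and was not called in TSP-1 null (0.46 ± 0.21, FDR 0.0586), and this difference between genotypes was itself not called (-0.14 ± 0.30, FDR 0.879). With median of ratios and quantile scaling the calls of Oasl1 in WT (0.04 and 0.06) and Oas2 in TSP-1 null (0.34 and 0.08) were lost. That of Oas2 in WT was lost with quantile normalization (0.39).

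**Figure D2:**
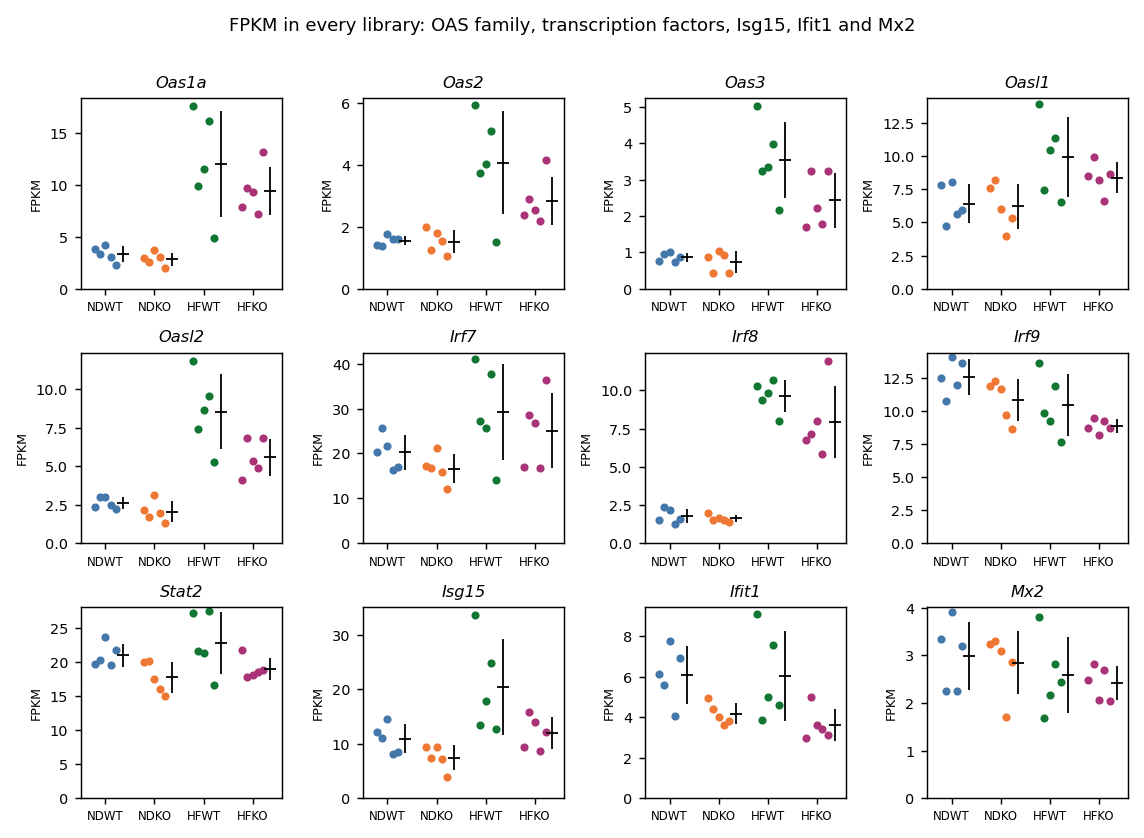
FPKM (y axis, from 0) of 12 members in each of the 5 libraries of NDWT, NDKO, HFWT and HFKO (x axis), with the mean and SD at the right of each group. Oas1a, Oas3, Oasl2 and Irf8 separate the diets, whereas Irf9, Stat2, Ifit1 and Mx2 do not, and HFWT5 is the lowest point of its group in most panels.

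The sensors and the ISG15 system rose in part. Ifih1, which encodes the RNA sensor MDA5, rose by 0.69 ± 0.11 (FDR 1.74e-05) and 0.72 ± 0.11 (FDR 1.21e-05), and Ddx58, which encodes RIG-I, by 0.82 ± 0.13 (FDR 1.07e-05) and 0.96 ± 0.13 (FDR 1.58e-06), while Dhx58, which encodes their regulator LGP2, stood at -0.03 ± 0.20 and -0.06 ± 0.20. Isg15 rose by 0.84 ± 0.27 (FDR 0.00916) and 0.70 ± 0.27 (FDR 0.0264). Usp18, the protease that removes ISG15 from proteins and restrains the type I receptor, rose in WT (0.64 ± 0.22, FDR 0.0145) and was not called in TSP-1 null (0.32 ± 0.22, FDR 0.21). None of these calls stood after median of ratios scaling.

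Of the 3 IFIT genes, which are classical targets of type I interferon, 1 rose in each genotype, against 44.1% of all genes in WT and 41.9% in TSP-1 null. Ifit2 rose by 0.85 ± 0.19 (FDR 0.000521) and 0.82 ± 0.19 (FDR 0.00073), while Ifit3 stood at 0.42 ± 0.24 and 0.29 ± 0.24 and was not called. Of the 31-base words of Ifit3 61.8% occur in Ifit3b. Ifit1 measured 6.15, 5.57, 7.76, 4.04 and 6.93 FPKM in NDWT and 9.13, 3.86, 5, 7.59 and 4.6 FPKM in HFWT. Its values were 4.96, 4.42, 4.03, 3.63 and 3.84 FPKM in NDKO and 2.97, 4.98, 3.6, 3.41 and 3.14 FPKM in HFKO. Ifit1 thus overlapped between diets in both genotypes, at -0.05 ± 0.21 (FDR 0.824) and -0.22 ± 0.21 (FDR 0.362).

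Among the other 9 antiviral effectors 4 rose in WT and 7 in TSP-1 null, against 44.1% and 41.9% of all genes. With median of ratios scaling 3 were higher and 1 lower in WT, and 1 higher and 1 lower in TSP-1 null. Quantile normalization gave 2 higher and 1 lower in WT, and 3 higher and 1 lower in TSP-1 null. Ifitm1 rose by 1.45 ± 0.17 (FDR 3.89e-07) and 1.22 ± 0.17 (FDR 3.87e-06), Mx1 by 1.28 ± 0.23 and 1.02 ± 0.23, Xaf1 by 1.19 ± 0.19 and 0.81 ± 0.19, and Ifi44 by 0.72 ± 0.27 and 0.96 ± 0.27. Bst2, Ifitm3 and Rtp4, a chaperone of membrane receptors, were called in TSP-1 null (0.75 ± 0.16, 0.63 ± 0.15 and 0.67 ± 0.18) and not in WT (0.35 ± 0.16, 0.41 ± 0.15 and 0.28 ± 0.18), and the interaction was called for none of them (FDR 0.42, 0.681 and 0.511). With median of ratios scaling Bst2, Ifitm3 and Rtp4 stood at 0.22, 0.10 and 0.14 in TSP-1 null and were not called. Rsad2, which encodes viperin, stood at 0.23 ± 0.18 and 0.17 ± 0.18. Mx2 measured 3.34, 2.26, 3.9, 2.24 and 3.19 FPKM in NDWT and 3.81, 1.69, 2.16, 2.82 and 2.44 FPKM in HFWT. In NDKO it measured 3.25, 3.31, 3.1, 1.71 and 2.87 FPKM and in HFKO 2.49, 2.83, 2.07, 2.7 and 2.04 FPKM, with overlap of the diets (-0.22 ± 0.21, FDR 0.348, and -0.20 ± 0.21, FDR 0.403).

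The GBP and IRG families moved differently with the diet, although this contrast between families was not tested. Of the 5 GBP members 4 rose in WT and 5 in TSP-1 null, against 44.1% and 41.9% of all genes. Gbp2 rose by 1.04 ± 0.24 (FDR 0.000651) and 1.48 ± 0.24 (FDR 1.74e-05) and Gbp6 by 0.77 ± 0.25 (FDR 0.00996) and 1.46 ± 0.25 (FDR 3.73e-05). Gbp5 stood at 0.07 ± 0.22 (FDR 0.796) in WT and rose by 0.93 ± 0.22 (FDR 0.00105) in TSP-1 null. None of the 4 IRG members was called in either genotype, and all 4 lay below the median gene in both. With median of ratios scaling all 4 IRG members were called lower in WT, and Irgm2 and Iigp1 in TSP-1 null, while no GBP member was called in WT. Quantile normalization called no GBP member higher in WT and 1 lower, Gbp5 (-0.82, FDR 0.00264). In TSP-1 null 2 GBP members rose under each of these scalings.

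When 1 library was left out at a time, the count of members that rose with the diet was 16 to 22 in WT, with the lowest count without NDWT4, and 21 to 24 in TSP-1 null. In WT the calls of Gbp3 (without NDWT1, NDWT4, NDWT5, HFWT1, HFWT3 or HFWT4; log2FC 0.44 to 0.60), Oasl1 (without NDWT2, NDWT4, NDWT5, HFWT1, HFWT3 or HFWT4; 0.46 to 0.58), Ifi44 (without NDWT4, HFWT1 or HFWT4; 0.51 to 0.64), Gbp6 and Gbp7 (without NDWT4; 0.52 and 0.49) and Usp18 (without HFWT1; 0.48) were lost. In TSP-1 null those of Isg15 (without NDKO5, HFKO2 or HFKO3; 0.49 to 0.64), Gbp3 (without NDKO5 or HFKO5; 0.51 to 0.55) and Ifitm3 (without HFKO2; 0.58) were lost, and Irf7 was gained without NDKO3, HFKO1 or HFKO4 (0.64 to 0.67).

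Markers of several cell types moved with the same diet. Of the tested markers, 7 of 8 of T and NK cells, 4 of 4 of plasmacytoid dendritic cells, 4 of 5 of dendritic cells, 4 of 4 of B cells and 3 of 3 of neutrophils rose in each genotype. On this deposited scale 44.1% of all genes rose and 4.62% fell in WT, and 41.9% rose and 4% fell in TSP-1 null. The other scalings are not given for the markers. The summed FPKM of the 9 T and NK cell markers was 1.87 to 7.07 in NDWT, 2.41 to 4.56 in NDKO, 11.9 to 26.3 in HFWT and 7.14 to 15.9 in HFKO, with none of the 9 at 0 throughout. Macrophage markers split, since 3 rose and 2 fell in WT and 4 rose and 2 fell in TSP-1 null (Clec4f and Timd4, markers of resident Kupffer cells, were those that fell), and their sum was 182 to 249 in NDWT, 154 to 268 in NDKO, 255 to 411 in HFWT and 235 to 534 in HFKO. Markers of stellate cells (5 of 5) and cholangiocytes (5 of 5) rose in each genotype, and the cholangiocyte sum went from 15.2 to 18 FPKM in NDWT and 12.4 to 15.5 in NDKO to 292 to 488 in HFWT and 181 to 360.2 in HFKO. The stellate sum was 46.1 to 57.5 in NDWT, 59.4 to 65.8 in NDKO, 149 to 271 in HFWT and 167 to 198 in HFKO. Of the 7 hepatocyte markers 2 fell in WT and 4 in TSP-1 null, and none rose. Of the 5 endothelial markers none was called in WT and 1 rose in TSP-1 null. Of the 4 erythroid markers none rose, while 1 fell in WT and 2 in TSP-1 null. The part of these cells in the diet differences of the members was not tested.

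The genotype comparison on the control diet asked whether livers of the genotypes differ without the feeding model, after the same 12 weeks. In NDKO 8 of 37 members (21.6%) were lower than in NDWT and none was higher (21 had an unadjusted p under 0.05, and voom called 7 lower and none higher), against 3.03% of all tested genes lower and 1.74% higher. An unadjusted p under 0.05 was found for 27.3% of all tested genes. The log2FC was negative for 36 of 37 members, with Ifitm1 (0.41 ± 0.17, FDR 0.13) as the exception, and its median was -0.34, against -0.07 over all genes. Of the 8 members called, 4 were GBP genes, 2 were IRG genes, and the others were Ubd and Rtp4. Values did not overlap, with NDKO lower, for 6 members, against 6.69% of all genes, and with NDKO higher for none, against 2.33%. Under both other scalings 31 of 37 members were negative. Of the 8 calls, 7 (all but Rtp4) were also made with median of ratios scaling and with quantile normalization.

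**Figure D3:**
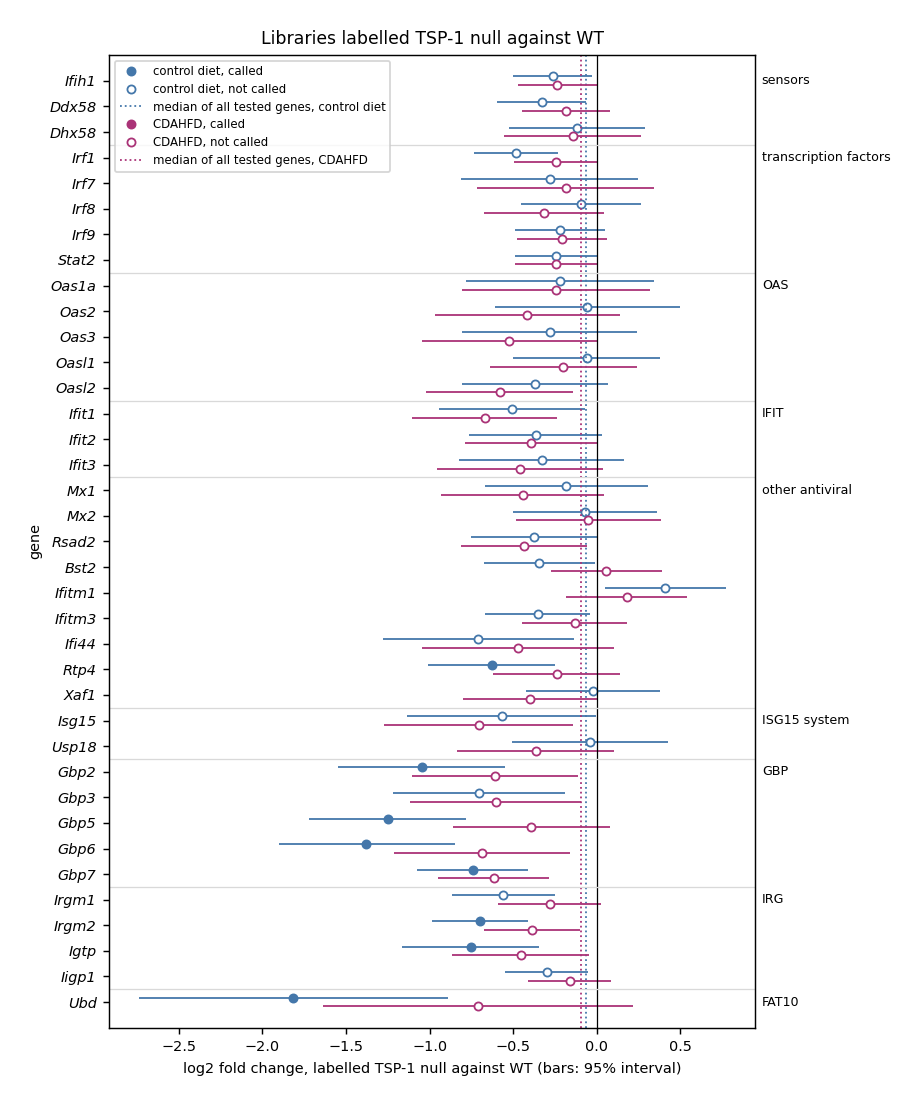
Log2FC of log2(FPKM + 0.1), libraries labelled TSP-1 null against WT (x axis), for the 37 members (y axis, by role) on control diet and on CDAHFD, with 95% intervals, filled points for called members, and dotted lines at the medians of all tested genes (-0.07 and -0.10). On control diet 8 points are filled, among them 4 of 5 GBP and 2 of 4 IRG genes, and on CDAHFD no point is filled though 35 of 37 lie left of 0.

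Guanylate binding proteins (GBPs) showed the largest differences apart from Ubd. Gbp6 (ENSMUSG00000079362.3, chr5:105270704-105293699, minus strand) measured 4.28, 8.24, 6.42, 2.36 and 4.5 FPKM in NDWT and 1.94, 1.51, 1.96, 1.9 and 1.58 FPKM in NDKO. All NDKO values lay below the lowest NDWT value, that of NDWT4, and the log2FC was -1.38 ± 0.25 (FDR 0.0018). Gbp5 (ENSMUSG00000040264.8, chr3:142496934-142522344, plus strand), which promotes inflammasome assembly, measured 1.38, 2.86, 1.84, 1.25 and 1.88 FPKM in NDWT and 0.786, 0.495, 0.637, 0.746 and 0.802 FPKM in NDKO. Here too the genotypes did not overlap, with a log2FC of -1.25 ± 0.22 (FDR 0.00155), the lowest FDR of the members. Gbp2 (ENSMUSG00000028270.6, chr3:142620602-142638008, plus strand), which coats vacuoles of intracellular parasites, measured 2.19, 4.62, 4.26, 2.78 and 3.03 FPKM in NDWT and 1.75, 1.38, 1.72, 1.44 and 1.36 FPKM in NDKO. NDWT1 was the lowest WT library and still lay above every NDKO library (log2FC -1.05 ± 0.24, FDR 0.00701).

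Gbp7 (ENSMUSG00000040253.9, chr3:142530338-142550083, plus strand) measured 3.67, 5.7, 5.2, 2.7 and 3.93 FPKM in NDWT and 2.58, 1.74, 2.23, 2.87 and 2.81 FPKM in NDKO. NDWT4 lay among the NDKO values, so the genotypes overlapped, and the log2FC was -0.74 ± 0.16 (FDR 0.0048; FDR 0.0525 in a fit of these 2 groups alone). Gbp3 was not called (-0.71 ± 0.25, FDR 0.0639). The identifiers of the rows named Gbp5 and Gbp6 belong to Gbp2b and Gm43302 in GENCODE M21. The row named Gbp5 lies at the position of Gbp5 there. The row named Gbp6 overlaps Gbp6 there, and it also shares 22992 bases, nearly its whole span, with Gm43302 on the same strand. Of the 31-base words of the Gbp6 of GENCODE M21, 67.8% occur in Gm43302 and 51.4% in Gbp10. Because Gm43302 carries the identifier of the row, the row named Gbp6 may measure Gm43302 rather than that Gbp6. Its value is uncertain as that of a single gene. The row named Gbp10, which carries another identifier than the Gbp10 of this word count, was lower in NDKO (log2FC -2.27, FDR 0.00257).

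Of the IRG family, immunity-related GTPases that disrupt pathogen vacuoles in mice, the neighbours Irgm2 and Igtp were called. Irgm2 (ENSMUSG00000069874.6, chr11:58199618-58222779, plus strand) measured 23.4, 30.7, 28.6, 25.6 and 27.4 FPKM in NDWT and 14.1, 20.7, 15.8, 16.8 and 16.3 FPKM in NDKO. Igtp (ENSMUSG00000078853.2, chr11:58199556-58207591, plus strand), also named Irgm3, measured 21.7, 34.1, 26.9, 21.4 and 21.2 FPKM in NDWT and 12.3, 18, 15.2, 15.7 and 12.3 FPKM in NDKO. Neither gene overlapped between genotypes, and the log2FC was -0.70 ± 0.14 (FDR 0.00274) for Irgm2 and -0.75 ± 0.20 (FDR 0.0155) for Igtp. The annotated genes overlap by 7974 bases on the same strand and share sequence (15.9% of the 31-base words of Igtp), so they are not independent measurements. Irgm1 passed the FDR but not the fold threshold (-0.56 ± 0.15, FDR 0.0168), and Iigp1 passed neither (-0.30 ± 0.12, FDR 0.103).

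On CDAHFD neither gene was called between genotypes. Irgm2 measured 22.4, 23.2, 22.7, 22.9 and 13.6 FPKM in HFWT and 17.1, 16.7, 14.3, 17.9 and 13 FPKM in HFKO, and Igtp 21.3, 21.4, 24.6, 23.6 and 10.4 and 15.4, 14.8, 14.2, 15.8 and 11 FPKM. HFWT5 lay far below the other 4 HFWT libraries for both genes and among the HFKO values for Irgm2, and below them for Igtp. Against NDWT the diet difference in WT was -0.39 ± 0.14 (FDR 0.0148) for Irgm2 and -0.34 ± 0.20 (FDR 0.122) for Igtp, neither past the fold threshold.

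Ubd and Rtp4 completed the calls on the control diet. Ubd (ENSMUSG00000035186.6, chr17:37193892-37196095, plus strand), whose values stand above, was lower in NDKO (log2FC -1.82 ± 0.44, FDR 0.0104), although NDWT4 lay among the NDKO values. It had 6 to 34 fragments in NDWT and 0 to 14 in NDKO, and the call was lost in a fit of these 2 groups alone (FDR 0.0731) and in the count model voom (FDR 0.0882). With a pseudocount of 1 or 0.01 the log2FC of Ubd was -0.75 or -2.61. Rtp4 (ENSMUSG00000033355.5, chr16:23609919-23614222, plus strand) measured 13.1, 14.8, 16, 11.6 and 12.7 FPKM in NDWT and 9.92, 8.09, 8.77, 9.54 and 7.51 FPKM in NDKO. The genotypes did not overlap (log2FC -0.63 ± 0.18, FDR 0.0267), but the fold lay close to the threshold, and the call was lost under both other scalings and without NDWT2, NDWT3, NDKO2 or NDKO5 (-0.60 to -0.57, FDR 0.0516 to 0.0713).

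**Figure D4:**
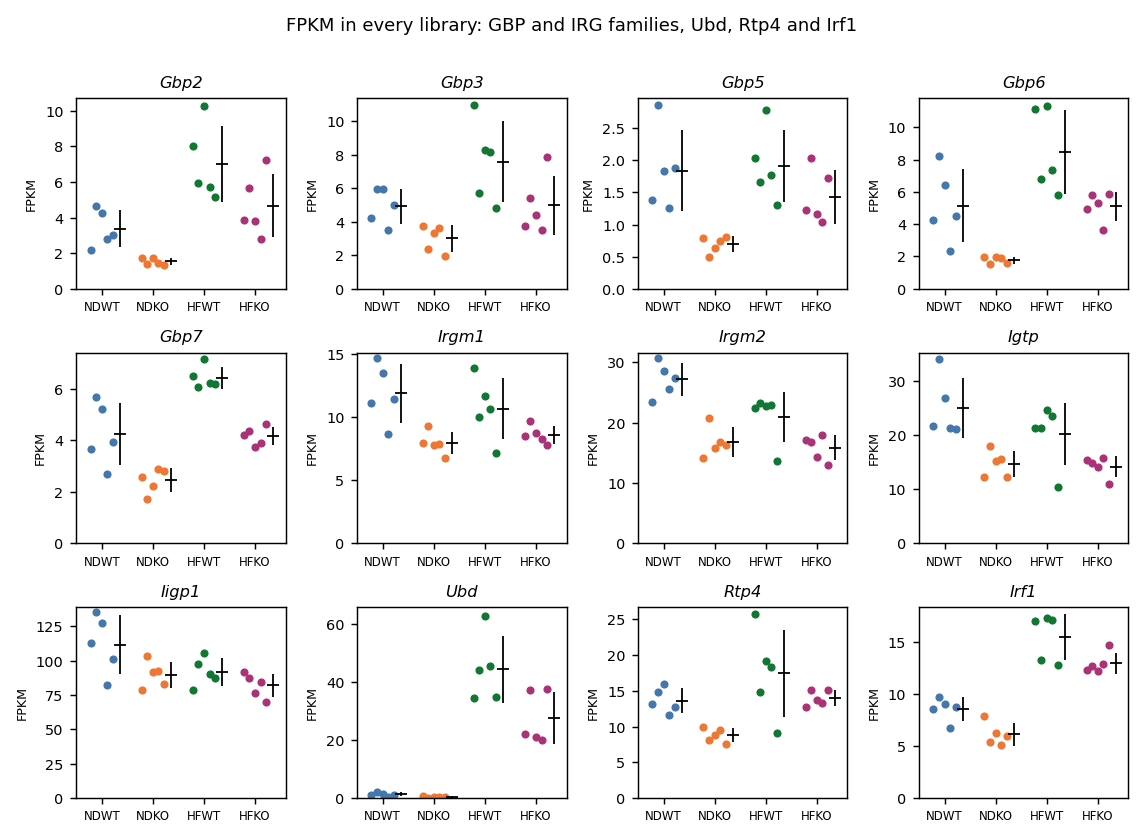
FPKM (y axis, from 0) of the GBP and IRG members, Ubd, Rtp4 and Irf1 in each of the 5 libraries of NDWT, NDKO, HFWT and HFKO (x axis), with the mean and SD at the right of each group. For Gbp2, Gbp5, Gbp6, Irgm2 and Igtp all NDKO points lie below all NDWT points, and for Gbp7 all HFKO points lie below all HFWT points.

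The members outside these families gave no further call on the control diet. Of the 5 transcription factors Irf1 had the lowest FDR (-0.48 ± 0.12, FDR 0.012) but not the fold, while Irf7 (-0.28 ± 0.25), Irf8 (-0.10 ± 0.17), Irf9 (-0.22 ± 0.13) and Stat2 (-0.25 ± 0.12) did not pass the FDR. None of the 5 OAS genes (median -0.22), 3 IFIT genes (median -0.37) or 3 sensors (median -0.26) was called. With median of ratios scaling 2 of the 5 OAS genes were above 0. Without NDWT4 the count of called members was 11, with Gbp3 (-0.82), Irgm1 (-0.67) and Ifit1 (-0.65) added. Leaving out each other library gave 7 to 9, with Gbp3 added without HFKO5, Irgm1 without NDKO2, and Ifi44 without NDKO3 or HFWT5. Counts of 6 of 9 GBP and IRG members and 2 of 28 other members stand side by side without a test of their difference.

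NDWT libraries differed among themselves along the same families. NDWT2 was the highest of its group for all 9 GBP and IRG members and NDWT3 for none of them, although NDWT3 was the highest for 20 members in all. NDWT4 was the lowest for 23 members. The summed FPKM of the 5 GBP members was 15.7, 27.4, 23.7, 12.6 and 18.3 in NDWT1 to NDWT5 and 10.8, 7.49, 9.89, 10.6 and 8.49 in NDKO1 to NDKO5. NDWT2 also had the highest summed T and NK cell markers, 7.07 FPKM against 1.87 to 3.19 in the other NDWT libraries and 2.41 to 4.56 in NDKO. Without NDWT2 7 of the 8 calls remained (all but Rtp4). Of the other marker lists, the hepatocyte marker Cps1 was called higher in NDKO (log2FC 1.10, FDR 0.000949), and the sums did not overlap for hepatocytes (52120 to 55450 FPKM in NDWT, 56180 to 61040 in NDKO) and stellate cells (46.1 to 57.5 and 59.4 to 65.8, no marker called). The part of these differences in the member values was not tested. No T and NK cell, macrophage, dendritic cell, B cell or neutrophil marker was called between genotypes on the control diet (lowest FDR 0.0529, for a B cell marker). Of all genes only 3.03% were called lower and 1.74% higher there, so the lack of a call in such short lists shows little.

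**Figure D5:**
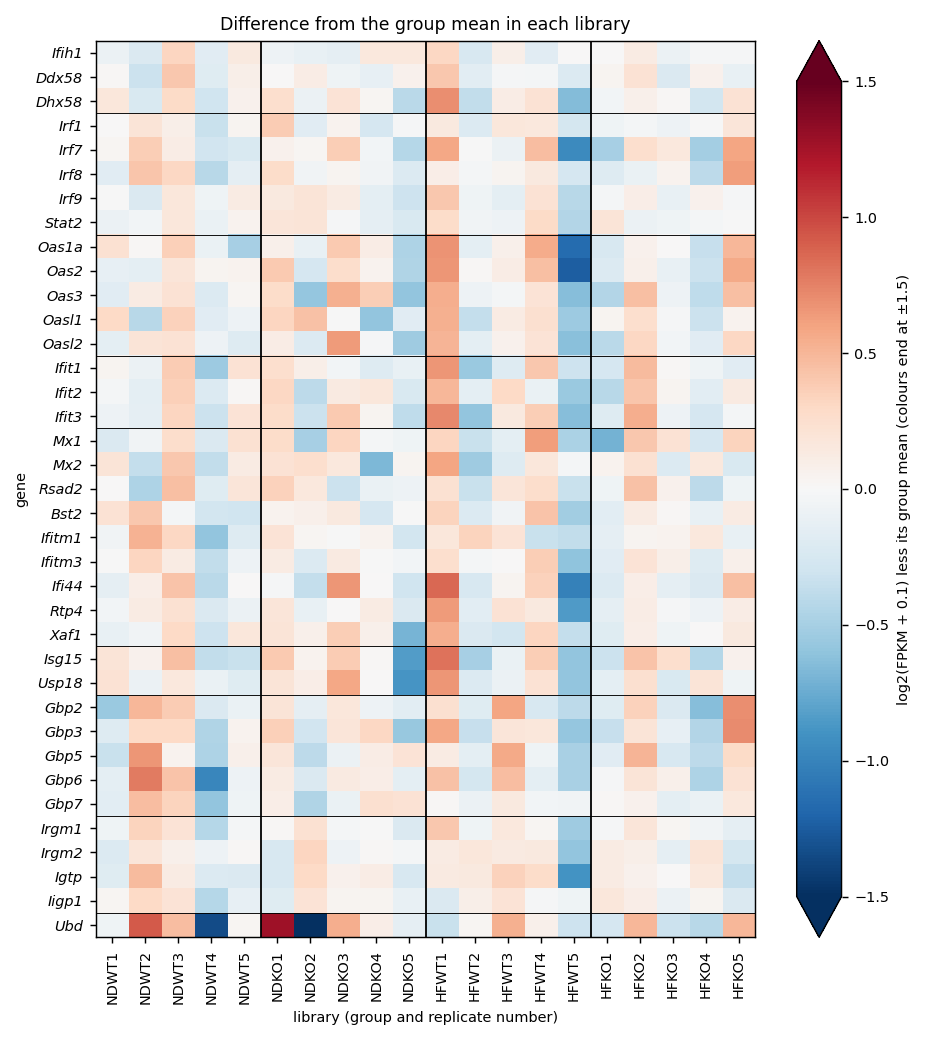
Log2(FPKM + 0.1) of each member (y axis, by role) in each library (x axis) less the mean of its group, with red for above and blue for below the group mean and colours ending at ±1.5. NDWT2 is red for the GBP and IRG genes at the lower part of the map, NDWT4 is blue for most genes, and HFWT5 is blue for nearly all.

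On CDAHFD no member was called between genotypes, against 0.165% of all genes higher and 0.33% lower. The lowest FDR was 0.0651, 12 of the 37 members had an unadjusted p under 0.05 (17.2% of all genes), and limma with voom called 1 member, Gbp7. The log2FC was negative for 35 of 37 members, the exceptions being Bst2 (0.06 ± 0.16) and Ifitm1 (0.18 ± 0.17), and its median was -0.39 against -0.10 over all genes. Values did not overlap with HFKO lower for Gbp7 alone, against 4.13% of all genes, and with HFKO higher for no member, against 0.847%. Gbp7 measured 6.51, 6.05, 7.13, 6.24 and 6.2 FPKM in HFWT and 4.2, 4.34, 3.75, 3.88 and 4.63 FPKM in HFKO, a log2FC of -0.62 ± 0.16 (FDR 0.0651). It was called without NDWT2, NDWT4 or NDKO2 (FDR 0.0293 to 0.0498) and in a fit of these 2 groups alone (FDR 0.00584), and Igtp was called without HFWT5 (-0.68, FDR 0.0353).

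The other GBP values on CDAHFD overlapped. Gbp6 measured 11.1, 6.78, 11.3, 7.36 and 5.79 FPKM in HFWT and 4.96, 5.79, 5.3, 3.61 and 5.89 FPKM in HFKO, and the log2FC was -0.69 ± 0.25 (FDR 0.169). Gbp2 measured 8, 5.95, 10.3, 5.72 and 5.13 FPKM in HFWT and 3.87, 5.64, 3.78, 2.79 and 7.24 FPKM in HFKO (-0.61 ± 0.24, FDR 0.199). Gbp5 measured 2.03, 1.67, 2.79, 1.78 and 1.3 FPKM in HFWT and 1.23, 2.03, 1.16, 1.04 and 1.72 FPKM in HFKO (-0.39 ± 0.22, FDR 0.38). For each of these genes HFKO2 and HFKO5 reached into the WT values. Rtp4 measured 25.8, 14.8, 19.2, 18.3 and 9.12 FPKM in HFWT and 12.7, 15.1, 13.8, 13.2 and 15.1 FPKM in HFKO and overlapped widely because HFWT spanned a range that contained HFKO (-0.24 ± 0.18, FDR 0.51).

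The interaction, which takes the genotype difference of the control diet from that of CDAHFD, was called for no member, against 0.337% of all genes higher and 0.31% lower. A single member had an unadjusted p under 0.05, against 15.1% of all genes. This was Gbp5 (0.86 ± 0.32, FDR 0.193), and voom called none. Its interval, 0.20 to 1.52, and that of Gbp6 (0.69, -0.05 to 1.43) leave the size of the change between diets wide. All 9 GBP and IRG members had a positive interaction and 12 of the 28 others did, counts whose difference was not tested. The genotype differences on both diets are thus listed side by side and are not shown to differ: for Irgm2 -0.70 and -0.39, for Gbp7 -0.74 and -0.62, and for Ubd -1.82 and -0.71. The interaction of Ubd, 1.11 ± 0.63 (FDR 0.427), was 0.06 with a pseudocount of 1.

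Interferon genes themselves were at or near the floor. Of 21 interferon genes looked up, 17 had 0 fragments in all 20 libraries, among them Ifnb1, Ifnl2, Ifnl3 and most interferon alpha genes, which allows up to 0.125 to 0.337 FPKM per library at 3 fragments, depending on gene length. Ifng, the type II interferon made by T and NK cells, measured 0 to 0.279 FPKM in NDWT (at most 6 fragments), 0 to 0.041 in NDKO, 0 to 0.374 in HFWT (at most 9 fragments) and 0 to 0.046 in HFKO. Ifnk had 0 to 4 fragments in a library, and Ifnz and Ifna7 had fragments in 2 libraries and 1 library. No ligand passed the filter on low values, so no ligand was tested.

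Receptors and signalling genes were measured more firmly. With the diet 9 of 15 tested genes of the receptor and JAK-STAT list rose in WT and 8 in TSP-1 null, against 44.1% and 41.9% of all genes. Ifngr1 and Ifngr2, both chains of the interferon gamma receptor, rose by 1.83 and 1.28 in WT (FDR 1.02e-12 and 8.33e-11) and by 1.70 and 1.60 in the other genotype. Ifnar1 of the type I receptor stood at 0.54 in both genotypes, near the median gene, and Ifnar2 at 0.01 and -0.15, none called. Il10rb, shared by the receptors of interferon lambda and interleukin 10, rose by 2.18 and 1.99, while Ifnlr1 stayed below the filter (at most 0.057 FPKM on control diet and 0.214 to 0.64 on CDAHFD).

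Further interferon-induced genes outside the 37 members were counted from a separate list of 49, of which 47 were tested. With the diet 29 rose in WT and 30 in TSP-1 null, against 44.1% and 41.9% of all genes, and none fell, against 4.62% and 4%. Between genotypes on the control diet 11 were lower in NDKO and none was higher, against 3.03% and 1.74% of all genes. An unadjusted p under 0.05 was found for 23 genes of the list and for 27.3% of all genes. Tgtp2, an IRG family GTPase, had the lowest FDR (-1.39, FDR 0.000648) and was the single gene of the list called on CDAHFD (-1.04, FDR 0.0274). On that diet 0.33% of all genes were called lower and 0.165% higher. The log2FC was negative for 46 of the 47 genes on CDAHFD and for 41 on the control diet. An unadjusted p under 0.05 was found for 25 genes of the list on CDAHFD, against 17.2% of all genes. The chemokine gene Cxcl10 was lower in NDKO (-1.42, FDR 0.00109), and so were Gbp10 (-2.27), Gbp4 (-1.12, FDR 0.003) and Dtx3l (-0.60, FDR 0.000799), while Herc6 (-0.52, FDR 0.00139) passed the FDR alone. Several of these genes lie near members or share sequence with them, so they are not independent of the member counts.

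Sensors of nucleic acids outside the members, 16 tested, rose for 10 genes and fell for 1 in each genotype on CDAHFD. Among all genes 44.1% rose and 4.62% fell in WT, and 41.9% rose and 4% fell in TSP-1 null. Tmem173, which encodes STING, rose by 2.25 in WT (FDR 3.64e-10) and 2.13 in TSP-1 null (FDR 9.25e-10), Irf5 by 2.37 and 1.97, and Ikbke, a kinase that activates interferon regulatory factors, by 2.14 and 2.28. Mavs, the adaptor of RIG-I and MDA5, fell by 0.87 on the log2 scale in WT (FDR 3.22e-07) and by 0.73 in TSP-1 null (FDR 3.02e-06). No gene of this list was called between genotypes on either diet.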

How the data were processed

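Liver RNA of 20 mice was sequenced from directional poly(A) libraries, and the authors deposited 1 table of FPKM values per gene, made per the labels with STAR 2.5.2 and featureCounts of Subread 1.5.1. The processing notes name a human build, whereas the gene positions are those of mouse GRCm38. The strand setting of the counting is not given in the sources used here. Fragments were recovered from FPKM, gene length and library total and came out whole for 100% of the values checked (at least 99.9% of those above 0), within the rounding of the file plus 0.02 fragments and 2e-06 of the value. Values were tested as log2(FPKM + 0.1) with limma 3.58.1 (R 4.3.3; trended variance, all 20 libraries, a mean per group) over 14524 genes, those reaching more than 0.5 FPKM in 5 or more libraries, and Benjamini-Hochberg adjusted p-values (FDR) cover all of them. A gene was called at an FDR under 0.05 and an absolute log2FC above 0.58. A fold on this scale understates the change of low genes. The 37 members, the other gene lists and the named genes were chosen with earlier results of these data known. Values in every library are given for the 3 members with the highest and the 3 with the lowest log2FC of each diet comparison, members called between genotypes (at most 8) and the 5 transcription factors, and at most 6 genes by lowest FDR, ligands and receptors from other lists. Motifs were searched as letters in RefSeq promoter entries, and sequence shared between genes was counted in 31-base words of GENCODE M21 transcripts. Groups came from the labels. Results of 1 gene of the receptor and JAK-STAT list are not reported here. Same-numbered mice are different animals, and deviations of same-numbered libraries correlated at -0.13 to 0.08. Nothing states separate cages or days, so p-values measure the spread between these mice. Alternatives were other scalings, pseudocounts, filters and thresholds, the compared groups alone, voom on the recovered fragments, the replicate number as a block and leaving out each library. The fits were tested on simulated data. Python 3.11.15, pandas 2.3.3 and matplotlib 3.10.9 were used.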

Additional observations from a re-analysis of the deposited data

Results flagged for a closer look

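Within the groups of 5 mice 8 of 148 member and group combinations held a library whose gap to its nearest neighbour was above 0.71 of the range of the group, and about 1 in 20 is what chance gives. For Irgm2 and Igtp the lowest library was HFWT5, at 13.6 FPKM (next 22.4) and 10.4 FPKM (next 21.3), and the 2 genes share sequence and annotated bases. HFWT5 also had the lowest value for 30 of 37 members. The other cases were spread over libraries. Ddx58 reached 8.98 FPKM in HFWT1 (next 6.65), Irf1 14.7 FPKM in HFKO5 (next 12.9), Stat2 21.6 FPKM in HFKO1 (next 18.8) and Ifit3 15.2 FPKM in HFKO2 (next 10.2). Mx2 had its lowest NDKO value in NDKO4 with 1.71 FPKM (next 2.87), and Ifi44 its highest in NDKO3 with 0.848 FPKM (next 0.501).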

How the results depend on the processing

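Scaling decided most of the diet counts: with median of ratios 9 members were higher and 8 lower in WT and 8 higher and 6 lower in TSP-1 null, and with quantile normalization 7 and 8 in WT, while TSP-1 null gave 11 and 4. Under both other scalings 21 members stood above 0 with the diet in WT, against 29 as deposited. Among differences called under either scaling, quantile normalization turned that in WT to -0.27 for Ifi44, -0.0167 for Gbp3, -0.82 for Gbp5 and -0.000363 for Gbp7. Without a fold threshold 2 members (Irgm2 and Iigp1) were lower in WT. On CDAHFD a fit of the compared groups alone and voom each called 1 member lower between genotypes. Leaving out 1 library gave 16 to 22 higher members with the diet in WT, 21 to 24 in TSP-1 null, 7 to 11 lower in NDKO than in NDWT, 0 to 1 lower in HFKO than in HFWT, and 0 in each other direction and in the interaction. The same numbers recur across groups without pairing the mice, and a replicate block gave 20 and 23 members higher with the diet (Gbp3 lost in WT, FDR 0.0582) and left the other counts as reported. The compared groups alone give no interaction. The depth of 15641545 to 23276322 fragments limits Ubd on the control diet and the interferon genes.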
